A study of Homo sapiens with 3 samples.

Results

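Voltage-gated and potassium ion channels were described in H128 cells, an established human small cell lung cancer (SCLC) line, after knockdown of ESRRG, the gene of the nuclear receptor ERRγ. The members were chosen by gene symbol alone: potassium channel genes (KCN), voltage-gated sodium channel genes (SCN), voltage-gated calcium channel genes (CACNA1, CACNA2D, CACNB and CACNG) and the hyperpolarization-activated HCN genes. They numbered 117 of the 17448 genes in the deposited table, of which 81 were potassium, 11 sodium, 21 calcium and 4 HCN channel genes. RNA was sequenced 48 h after transfection with a control siRNA (siCont) or with either of 2 siRNAs against ESRRG, in libraries labelled siERRG2 and siERRG3. The sources do not say which of the study's ESRRG siRNA sequences each label stands for. All cells were unmodified H128, and there was 1 library per condition, so no difference has a replicate check and no p-value is given.

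These channels let ions cross the cell membrane down their gradients. Sodium and calcium channels open on depolarization and carry inward current, which starts action potentials and, through calcium entry, triggers the release of hormones and transmitters. Most potassium channels carry outward current that restores or holds the resting potential, and HCN channels carry a slow inward current on hyperpolarization. SCLC is a neuroendocrine tumor, and its cells are known to be electrically excitable and to expose calcium channels that are targets of autoantibodies in Lambert-Eaton syndrome. ERRγ is best known as an activator of mitochondrial metabolism, and in mouse heart, stomach and kidney it is also known to control genes of potassium handling.

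Depth was nearly equal, at 19861937 total counts for siCont, 19900580 for siERRG2 and 20016780 for siERRG3. Values given as 3 numbers follow this order of libraries throughout. The targeted gene, ESRRG, was at 806, 211 and 230 counts. Its scaled count relative to siCont was 0.259 with siERRG2 (95% interval 0.221 to 0.302) and 0.281 with siERRG3 (0.241 to 0.325). Such an interval is an exact binomial (Clopper-Pearson) interval that covers counting error only, and it compares libraries, not conditions. Of the neuroendocrine markers examined, all 11 in the table had at least 234 counts in every library, and their summed length-scaled level was 1490, 1362 and 1643. UCHL1 alone held 729, 696 and 1006 of these sums, so they mostly follow that gene. The median log2 fold change of the 11 markers was -0.047 in siERRG2 and -0.16 in siERRG3. Single markers moved: INSM1 had 10359, 5279 and 9168 counts and NEUROD1 7395, 7020 and 4073. Markers of other cell types were mixed. The summed level of 6 fibroblast genes was 22.9, 32.5 and 25.9, that of 5 leukocyte genes 4.95, 4.63 and 5.47, and that of 4 endothelial genes 17.9, 19.8 and 7.25. PDGFRB had at most 5 counts and VWF and KDR at most 1, but COL1A2 had 2043, 2896 and 2505 and CDH5 1456, 1623 and 585. Whether these shifts had a part in the results below was not tested, and in such bulk RNA fewer cells of a type and less RNA per cell cannot be told apart.

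Levels between genes were compared on the authors' length-scaled expression value, which behaves as FPKM. A few genes held most of the signal. KCNH2, the hERG channel of the rapid delayed rectifier current, had values of 94.38, 69.52 and 91.54, and held 19.5% of the summed value of all 117 members in siCont. The top 5 members together held 60.7% of it. Also among the highest by mean were KCNMA1, the pore of the BK channel opened by voltage and calcium (38.82, 54.18 and 34.50), and KCND3, a pore of the transient A-type current (19.81, 20.03 and 12.25). KCNJ4, an inward rectifier, followed among the potassium genes, with 15.66, 10.36 and 6.83.

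Calcium channel genes were led by accessory subunits. CACNA2D2, whose α2δ product carries the pore-forming subunits to the membrane, had 28.97, 13.51 and 9.36, and its paralog CACNA2D1 had 11.22, 13.57 and 14.70. CACNA2D2 was thus above CACNA2D1 in siCont and below it in both ESRRG libraries on this scale, although in siERRG2 the values were nearly equal. The most abundant β subunit was CACNB3 (6.43, 6.14 and 6.45). Among the pores, CACNA1B, the N-type channel of presynaptic terminals, had 5.13, 3.34 and 2.73, and the L-type CACNA1C had 4.82, 3.59 and 4.19. CACNA1A, the P/Q-type pore, had 0, 0 and 2 counts, CACNA1E, the R-type pore, had 1, 1 and 0, and at this depth 0 counts allow up to 3.

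The highest sodium genes by mean were the β subunit SCN3B (4.05, 4.16 and 3.26) and the neuronal pores SCN8A (2.84, 3.18 and 2.52) and SCN1A (3.16, 2.46 and 2.10). HCN3 had 7.61, 7.68 and 7.55 and HCN2 had 5.83, 4.0 and 7.0. In all, 49 of the 117 members had a mean value of at least 1 and 7 of at least 10.

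**Figure D1:**
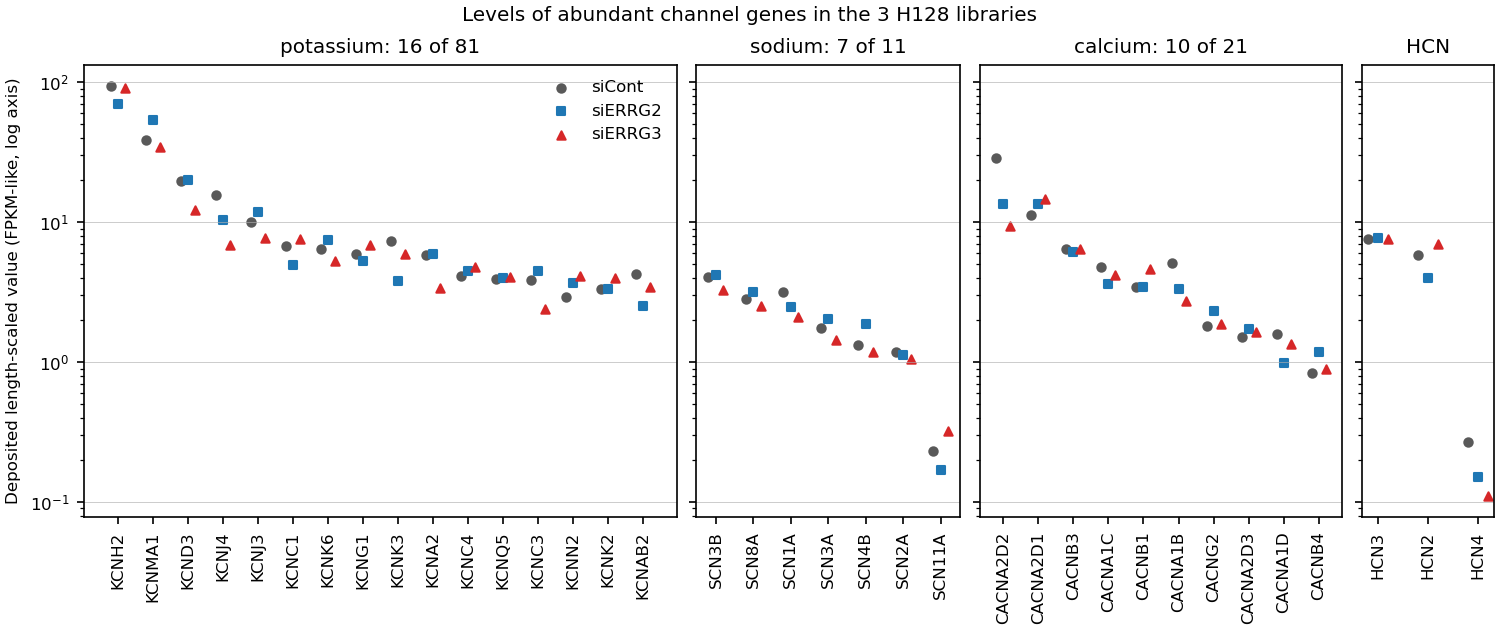
Deposited length-scaled value (FPKM-like, log axis) of abundant potassium, sodium, calcium and HCN channel genes; each point is 1 library. KCNH2 is at 94.38, 69.52 and 91.54, and CACNA2D2 is at 28.97 in siCont and at 13.51 and 9.36 in the ESRRG libraries.

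To ask which channel genes differed from siCont, the 85 members that reached 10 counts in any library were compared with it, among 14031 genes that did so; these are the tested genes below, although no significance test was possible. The remaining 32 had at most 9 counts in any library. The tested members were sparser than other genes, with a median mean count of 129 against 538, so 2 rules were used. By the first, a gene counted as lower or higher at a 1.2-fold difference, the threshold of the study. By the second, the interval of its count ratio had also to leave out 1, and "called" means this below.

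Channel genes were lower than siCont more often than higher, in either ESRRG library. By fold alone, 33 of the 85 were lower in siERRG2 and 15 higher, or 38.8% and 17.6%, against 19.2% and 16.4% of all tested genes. In siERRG3, 30 were lower and 20 higher, or 35.3% and 23.5%, against 25.1% and 23.2%. With the interval required, 25 members (29.4%) were called lower in siERRG2 and 6 (7.06%) higher, against 12.8% and 10.2% of all tested genes. In siERRG3, 26 (30.6%) were called lower and 8 (9.41%) higher, against 19.9% and 17.1%. Since both ESRRG libraries were compared with the same siCont library, an unusual siCont value would appear in both.

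The excess of lower genes was also seen at higher counts. Among the 58 members with a mean of at least 50 counts, 22 (37.9%) were called lower in siERRG2 and 6 (10.3%) higher, where 13.7% and 11.2% of the 11369 genes at that level were. In siERRG3, 24 (41.4%) were called lower and 6 higher, against 23.0% and 17.9%. The median log2 fold change of the 85 tested members was -0.13 in siERRG2 and -0.089 in siERRG3, against -0.00038 and -0.0033 over all tested genes. These shares are descriptions without a test.

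Compared by ion, lower calls outnumbered higher ones in each class, although by fold alone as many potassium genes were lower as higher in siERRG3 (17 and 17). Of 16 tested calcium channel genes, 5 were called lower and 1 higher in siERRG2, and 6 and 2 in siERRG3. Of 10 sodium channel genes, 3 were called lower and 1 higher in siERRG2, and 4 and 0 in siERRG3. Of 56 potassium channel genes, 15 were called lower in each library, with 4 higher in siERRG2 and 6 in siERRG3. Of 3 HCN genes, 2 were called lower in siERRG2 and 1 in siERRG3. The shares called lower were 31.2% (calcium), 30.0% (sodium) and 26.8% (potassium) in siERRG2, and 37.5%, 40.0% and 26.8% in siERRG3. With so few sodium and calcium genes, 1 gene moves these shares by several percentage points, and the classes were not tested against each other.

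**Figure D2:**
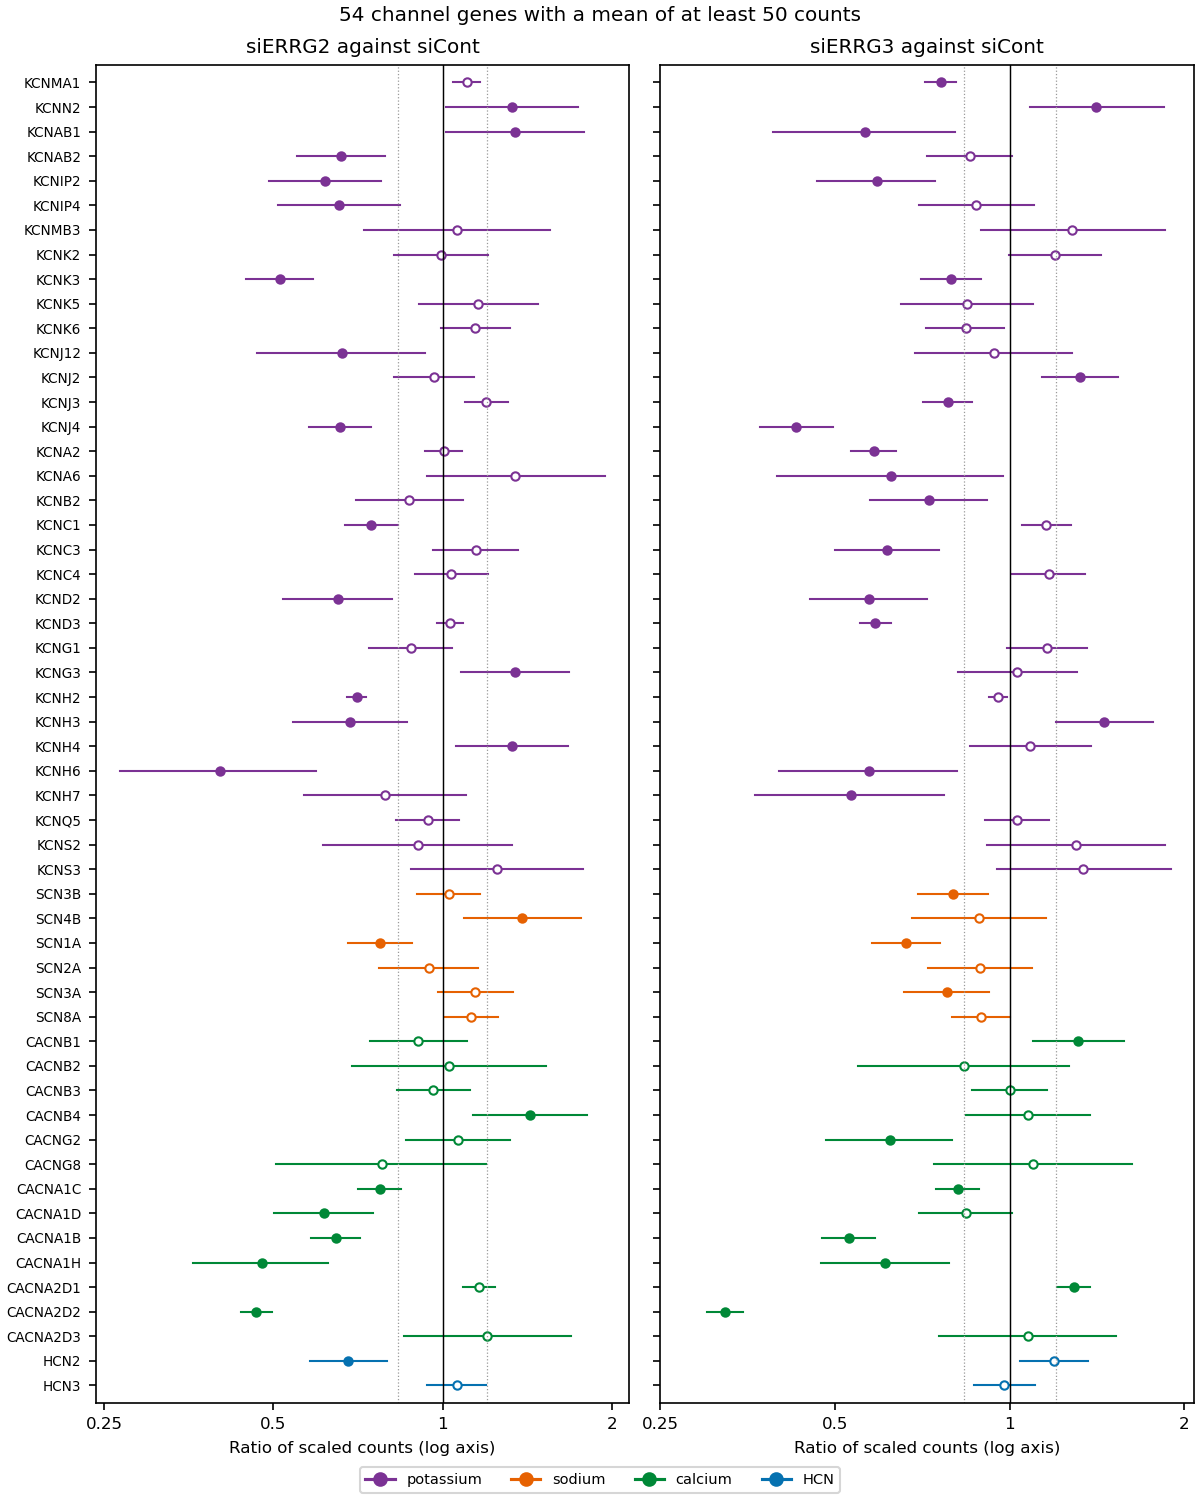
Ratio of scaled counts to siCont (log axis) with its 95% exact binomial interval for 54 channel genes averaging 50 counts or more, coloured by ion; filled points are called, open points are not, and dotted lines mark a 1.2-fold difference. CACNA2D2 is farthest to the left in siERRG3, at 0.323, and KCNH6 in siERRG2, at 0.402.

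Among members averaging 50 counts or more, the lowest ratio in siERRG3 was that of CACNA2D2. This gene (gene 9254, chromosome 3 from 50359510 to 50504244 in the table's GRCh38 coordinates) lies in a part of the short arm that is often lost in lung cancers. Its counts were 3159, 1490 and 1038, with both ESRRG libraries well below siCont. The ratio was 0.466 for siERRG2 (0.438 to 0.496, a log2 fold change of -1.10). For siERRG3 it was 0.323 (0.301 to 0.347, a log2 fold change of -1.63). The paralog CACNA2D1 had 1650, 1939 and 2163 counts, with a ratio of 1.16 in siERRG2 (1.09 to 1.24), which missed the fold threshold, and of 1.29 in siERRG3 (1.21 to 1.38), which was called higher. The 2 main α2δ genes were thus called in opposite directions in siERRG3, while CACNA2D3, with 65, 79 and 71 counts, was within counting error in both libraries.

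The pore-forming calcium channel genes with enough reads were lower. CACNA1B (gene 774, chromosome 9 from 137877770 to 138124752) had 1011, 660 and 543 counts, and ratios of 0.645 (0.584 to 0.713) and 0.528 (0.475 to 0.587). CACNA1C, the main L-type pore of heart and smooth muscle, had 1198, 936 and 992 counts, with ratios of 0.772 (0.708 to 0.842) and 0.814 (0.748 to 0.886). CACNA1H, a T-type pore that opens near the resting potential, had 166, 80 and 103 counts, and ratios of 0.476 (0.360 to 0.626) and 0.610 (0.472 to 0.785). Each of these 3 pores was called lower in each ESRRG library on counts, but on the length-scaled value the siERRG3 ratio of CACNA1C was 0.869, short of the fold threshold. CACNA1D, the L-type pore of neuroendocrine cells, had 254, 158 and 217 counts and was called lower in siERRG2 only by these rules, at 0.615 (0.501 to 0.753), with 0.840 (0.698 to 1.01) in siERRG3. The T-type CACNA1G and CACNA1I had 15 to 17 and 36 to 47 counts, and their intervals included 1.

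The β subunits, which bind the pore from the inside and raise its current, did not follow the pores. CACNB3 had 353, 344 and 359 counts, with ratios of 0.963 (0.828 to 1.12) and 1.0 (0.861 to 1.16). CACNB4 was called higher in siERRG2, at 1.43 (1.13 to 1.80), and CACNB1 in siERRG3, with 214, 196 and 286. CACNG2, a γ-family gene whose product is better known as the AMPA receptor partner stargazin, had 171, 184 and 108 counts and was called lower in siERRG3 at 0.621 (0.484 to 0.795). On the length-scaled value it had 1.80, 2.33 and 1.87, a siERRG3 ratio of 1.04, so that neither the call nor its direction holds on that scale. Its relative CACNG4 had 21, 11 and 2 counts, with a ratio of 0.0937 in siERRG3 (0.0106 to 0.383). Summed over the 21 calcium genes, the counts were 8563, 6416 and 6185, a ratio of 0.741 in siERRG2 and 0.710 in siERRG3. Without CACNA2D2 the sums were 5404, 4926 and 5147, and the ratios 0.901 and 0.937, so that this gene held most of the difference.

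Among sodium channel genes, SCN1A was called lower in each ESRRG library. SCN1A, a pore of inhibitory neurons that is mutated in Dravet syndrome, had 538, 421 and 363 counts, with ratios of 0.774 (0.679 to 0.880) and 0.663 (0.579 to 0.759). Its count in siCont lay above those of both ESRRG libraries.

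Other sodium channel genes differed between the ESRRG libraries or stayed within counting error. SCN3A had 319, 369 and 253 counts, and was called lower in siERRG3 at 0.780 (0.659 to 0.923), while its ratio in siERRG2 was 1.14 (0.982 to 1.33). SCN3B had 463, 480 and 376 counts and was called lower in siERRG3 as well, at 0.799 (0.695 to 0.917). SCN4B had 122, 171 and 110 counts, and was called higher in siERRG2 at 1.39 (1.09 to 1.76). SCN8A, with 630, 716 and 572 counts, and SCN2A, with 201, 192 and 182, were called in neither library. SCN2B had 11, 0 and 10 counts, with a ratio interval of 0 to 0.394 in siERRG2, so it was called lower there on few reads. SCN2A and SCN3A are closely related neighbors whose extents in the table overlap, so that reads may have been split between them.

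Of the potassium channel genes, the A-type group was lower in part. The A-type current is carried by KCND pores with KCNIP subunits and DPP proteins. KCND2 (gene 3751, chromosome 7 from 120241946 to 120752515) had 208, 137 and 121 counts, with ratios of 0.651 (0.521 to 0.812) and 0.572 (0.453 to 0.719). KCNIP2, a calcium-binding subunit of these pores, had 200, 125 and 120 counts, with ratios of 0.618 (0.490 to 0.776) and 0.590 (0.467 to 0.744). KCNIP4 had 166, 110 and 148 counts and was called lower in siERRG2 alone. KCND3 had 2735, 2848 and 1633 counts: its siERRG2 ratio was 1.03 (0.976 to 1.09), and its siERRG3 ratio was 0.587 (0.552 to 0.624). DPP6, with 29, 25 and 47 counts, and DPP10, with 72, 66 and 55, were called in neither.

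Inward rectifiers set the resting potential. KCNJ4 (gene 3761, chromosome 22 from 38426327 to 38455199) had 621, 413 and 271 counts, with ratios of 0.657 (0.579 to 0.746) and 0.429 (0.371 to 0.496), and was called lower in both. KCNJ12, with 88, 59 and 84 counts, was called lower in siERRG2 alone. KCNJ2, of the same strong rectifier group, had 304, 297 and 408 counts and was called higher in siERRG3, at 1.32 (1.13 to 1.54). KCNJ3, a G protein-gated rectifier, had 926, 1121 and 736 counts. It was called lower in siERRG3, at 0.782 (0.709 to 0.862), while in siERRG2 its ratio of 1.197 (1.10 to 1.31) fell just short of the fold threshold. KCNK3, an acid-sensitive background channel of the K2P family, had 613, 318 and 494 counts and was called lower in both, with ratios of 0.513 (0.446 to 0.588) and 0.792 (0.702 to 0.894). KCNK7 had 0, 1 and 12 counts and was called higher in siERRG3, where its ratio interval began at 2.73. With 3 counts in place of 0 in siCont, the difference in siERRG3 was 3.93-fold, before counting error. KCNK7 was among the tested genes only through its siERRG3 count, so it could be found higher there but not lower. Its extent overlaps those of other genes in the table.

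The ERG and EAG family (KCNH) and the Kv1 pores were called in part. KCNH2 (gene 3757, chromosome 7 from 150944884 to 150978314) had 5711, 4060 and 5549 counts and was called lower in siERRG2, at 0.703 (0.675 to 0.732), while its siERRG3 ratio was 0.955 (0.921 to 0.992), below the fold threshold. KCNH6, another ERG gene, had 91, 37 and 53 counts and was called lower in both, with ratios of 0.402 (0.267 to 0.595) and 0.573 (0.400 to 0.812). KCNH7, the remaining ERG gene, had 85, 68 and 46 counts and was called lower in siERRG3. KCNA2, a low-threshold Kv1 pore, had 1347, 1370 and 799 counts, with 1.01 (0.932 to 1.08) in siERRG2 and 0.583 (0.534 to 0.637) in siERRG3.

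Some potassium channel genes were higher than siCont. KCNN2, a small-conductance channel opened by calcium, was the only member with a mean of at least 50 counts called higher in each library. It had 99, 133 and 142 counts, and its intervals began close to 1, at 1.02 in siERRG2 and 1.08 in siERRG3. KCNG3, a silent Kv subunit, with 144, 196 and 151 counts, and KCNH4, with 134, 180 and 148, were called higher in siERRG2. KCNQ5, with 492, 468 and 515 counts, HCN3, with 528, 566 and 526, and KCNC4, with 352, 369 and 418, were called in neither library.

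Some members were called in opposite directions. KCNH3, an EAG-like channel of the forebrain, had 182, 126 and 269, with ratios of 0.684 (0.541 to 0.864) and 1.45 (1.2 to 1.76). KCNAB1, a cytoplasmic β subunit of Kv1 channels, had 89, 121 and 51, with ratios of 1.34 (1.01 to 1.79) and 0.563 (0.391 to 0.804). HCN2, a fast pacemaker channel, had 397, 273 and 482 counts. It was called lower in siERRG2 at 0.680 (0.581 to 0.795), and its siERRG3 ratio of 1.19 (1.04 to 1.37) missed the fold threshold. HCN4, the main pacemaker channel of the sinoatrial node, had 33, 15 and 13 counts and was called lower in both.

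KCNMA1 had 2401, 2683 and 1857 counts, with 1.10 for siERRG2 (1.05 to 1.17), and was called lower in siERRG3 at 0.761 (0.715 to 0.808). On the length-scaled value its ratios were 1.40 and 0.889, so its call depends on the scale. KCNH4 also differed between scales, with 1.33 on counts and 1.92 on the length-scaled value in siERRG2.

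Whether the responses in the 2 ESRRG libraries differ was not tested, since each has 1 library.

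Genes that work with these channels were examined as further lists. Of 20 tested partners and regulators, 2 were called lower and 1 higher in siERRG2, and 8 lower and 5 higher in siERRG3, where 12.8% and 10.2% of all tested genes were in siERRG2 and 19.9% and 17.1% in siERRG3. The list's shares were 10% and 5% in siERRG2 and 40% and 25% in siERRG3, and the difference between the libraries was not tested. ANK3, the ankyrin that anchors sodium and KCNQ channels at the axon initial segment, had 3025, 2971 and 1294 counts, with ratios of 0.971 (0.923 to 1.02) and 0.421 (0.394 to 0.449). ANK2, its relative, had 1225, 1342 and 477 counts, with a siERRG3 ratio of 0.383 (0.344 to 0.426). FGF14, an intracellular sodium channel partner, had 865, 801 and 480, whereas its relative FGF11 had 78, 74 and 427, a siERRG3 ratio of 5.38 (4.22 to 6.94). These 4 genes and ABCC9, a subunit of KATP channels with 1668, 1858 and 924 counts, were picked out after their values were seen. All 5 were called in siERRG3 and not in siERRG2, a difference that was not tested.

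AMIGO1, an adhesion protein that is also a channel subunit, had 671, 414 and 536 counts and was called lower in each library, with ratios of 0.610 (0.538 to 0.690) and 0.785 (0.70 to 0.881). RIMS2, which tethers calcium channels at release sites, was called lower in each too, with 466, 351 and 376 counts. Of 19 tested other channels of the superfamily, 4 were called lower and 2 higher in siERRG2, and 6 and 0 in siERRG3. Their shares were 21.1% and 10.5% in siERRG2 and 31.6% and 0% in siERRG3. Over all tested genes the shares were 12.8% and 10.2% in siERRG2 and 19.9% and 17.1% in siERRG3. The share of higher calls in siERRG2 was thus near that of all genes. UNC79, a subunit of the sodium leak channel, had 912, 561 and 652 counts and TPCN1, a channel of endosomes, had 257, 196 and 195, and both were called lower in each library. Of 10 tested sodium pump genes, 1 was called lower and 1 higher in siERRG2 and 3 and 1 in siERRG3, shares of 10% and 10%, and of 30% and 10%. Their siERRG2 shares were near those over all tested genes. FXYD2, a pump regulator of kidney, had 32, 9 and 0 counts and was called lower in both.

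**Figure D3:**
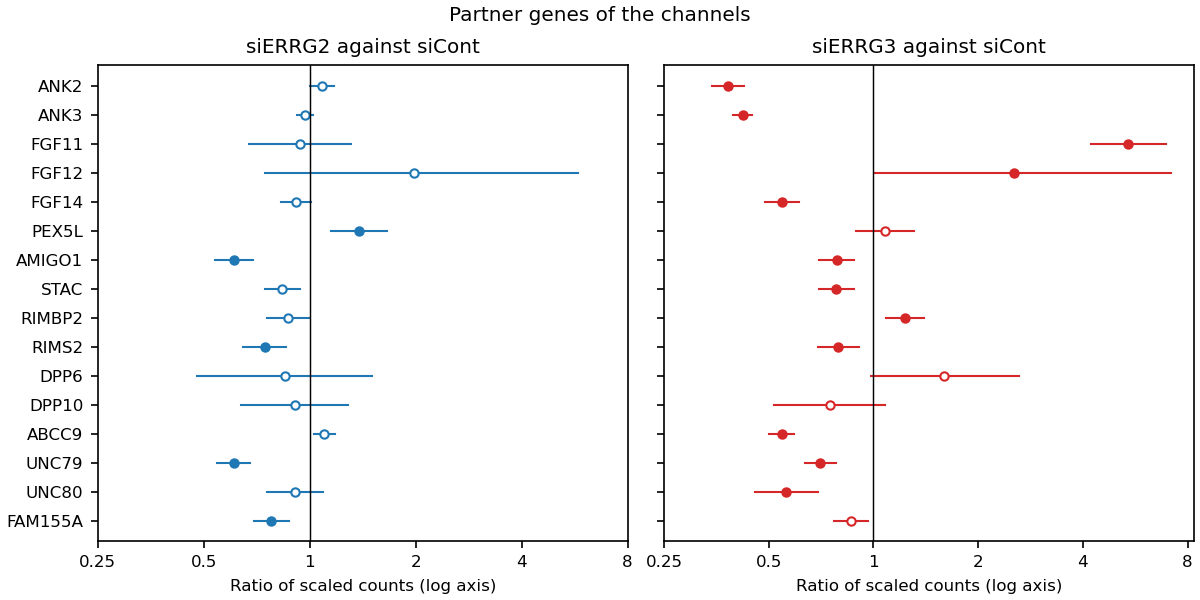
Ratio of scaled counts to siCont (log axis) with its 95% exact binomial interval for 16 genes that work with the channels; filled points are called. ANK2, ANK3 and FGF14 are near 1 in siERRG2 and at 0.383, 0.421 and 0.546 in siERRG3, where FGF11 is at 5.38.

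ERR receptors bind the extended half-site TNAAGGTCA, where N is any base, and its core AAGGTCA. Both were searched on both strands of RefSeq promoters of GRCh38.p14, from 250 bases before to 50 after each annotated start, with each AAGGTCA inside a longer match counted for both motifs. The search covered 131 promoters of 82 channel genes. No promoter of the remaining members was searched, so the shares given here do not describe them. The extended site was found in 1 of the 131 promoters (0.763%), that of KCNJ16, which has at most 1 count. It was found in 0.951% of all 35116 promoters searched. The core was found in 3 (2.29%), against 3.92% of all promoters searched. For tested genes only, the core was in 2 of 100 channel promoters (2%) and in 2.72% of all. The extended site was in 0 of those channel promoters and in 0.561% of all promoters of tested genes. A match is only a run of letters, and its absence here says nothing of binding elsewhere.

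The promoters of KCND2 and HCN2, the tested members found with the core in this search, are shown with those of CACNA2D2 and CACNA1B. The counts of CACNA2D2 and CACNA1B were among the most changed. They are shown so that the sequences near the starts can be read beside the values above. Capitals mark the core, which begins at base -36 in KCND2 and, on the opposite strand as TGACCTT, at base -177 in HCN2, counted back from the start. No core lies in the windows of CACNA2D2 or CACNA1B. The sequences run 5′ to 3′ on the strand of the gene.
KCND2, chr7:120272925-120273224, plus strand: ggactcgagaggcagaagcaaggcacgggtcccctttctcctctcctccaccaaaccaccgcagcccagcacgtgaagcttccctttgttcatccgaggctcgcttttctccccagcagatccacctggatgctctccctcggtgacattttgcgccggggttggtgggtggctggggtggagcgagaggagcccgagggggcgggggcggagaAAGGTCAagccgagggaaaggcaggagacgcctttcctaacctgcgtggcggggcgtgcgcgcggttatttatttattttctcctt
HCN2, chr19:589631-589930, plus strand: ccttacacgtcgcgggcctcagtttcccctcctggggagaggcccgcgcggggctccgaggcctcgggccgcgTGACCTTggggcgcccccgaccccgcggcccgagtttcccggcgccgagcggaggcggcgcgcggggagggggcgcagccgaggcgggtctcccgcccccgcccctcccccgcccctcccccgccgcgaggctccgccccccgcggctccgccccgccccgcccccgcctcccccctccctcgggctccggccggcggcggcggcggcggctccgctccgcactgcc
CACNA2D2, chr3:50503585-50503884, minus strand: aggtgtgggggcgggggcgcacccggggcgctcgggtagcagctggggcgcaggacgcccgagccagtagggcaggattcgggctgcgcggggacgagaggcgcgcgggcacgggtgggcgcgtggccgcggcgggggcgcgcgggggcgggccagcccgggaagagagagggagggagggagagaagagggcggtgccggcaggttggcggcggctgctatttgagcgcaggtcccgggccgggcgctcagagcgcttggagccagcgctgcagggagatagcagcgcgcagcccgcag
CACNA1B, chr9:137877532-137877831, plus strand: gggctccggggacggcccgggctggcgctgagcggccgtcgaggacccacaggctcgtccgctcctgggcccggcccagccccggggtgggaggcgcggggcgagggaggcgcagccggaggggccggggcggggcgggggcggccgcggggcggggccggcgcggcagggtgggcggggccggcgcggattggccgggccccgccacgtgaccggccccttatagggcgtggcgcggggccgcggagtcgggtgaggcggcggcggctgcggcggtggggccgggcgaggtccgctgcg

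The GC content of these windows was 61.7% (KCND2), 84.7% (HCN2), 77.3% (CACNA2D2) and 85.3% (CACNA1B), and CACNA2D2 has another annotated start, with 60.3%. The median over the searched promoters of tested channel genes was 65.7%, and over those of all tested genes 64.3%. The gene extents of the tested members were longer, with a median of 86.1 kb against 71.1 kb.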

How the data were processed

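RNA of 3 H128 cultures, 1 per condition, was sequenced by the authors. The methods name alignment to GRCh37/hg19 with BWA and Bowtie 2, and the submitters' processing notes name TopHat2, HTSeq and DESeq2, while the table's coordinates are those of GRCh38. The values deposited by the authors are estimated counts (expected counts) per gene, not normalized, of which 54.5% were whole in siCont, so that shared reads were apportioned. A second deposited column per library, in a unit the authors do not name, behaves as FPKM. Their own comparison columns (log2 ratios and Poisson p-values) were not used.

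Counts were rounded, genes reaching 10 counts in any library were retained, and libraries were scaled by TMM (edgeR 4.0.16, R 4.3.3; factors 0.994, 1.003 and 1.003). Log2 fold changes are differences of log2 CPM with a prior count of 2, which draws low counts towards 0. Ratio intervals are 95% exact binomial intervals and cover counting error only. The computations were tested on simulated data.

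The members, lists and thresholds were chosen with earlier results of these data known. Genes were named if ESRRG, among the 5 highest by level in an ion class, called in each library, among the 5 largest changes per library and direction (the latter with a mean of at least 50 counts), or a related-list gene called in each library in 1 direction; other genes were named after their values were seen. Of the members, 57 had whole counts in every library, and the extents of 73 overlapped another gene of the table. That number is inflated by MUC4 and gene 105373132, whose extents in the table reach members far apart on chromosomes 3 and 1. For some members, such as SCN10A and HCN3, this is the only overlap. The counting's use of strand is not given in the sources used here, so where genes do overlap their reads cannot be told apart. Protein sequences were not used here. Some genes that the naming rule selects are not reported here, although counts over the members include them.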

Additional observations from a re-analysis of the deposited data

Results flagged for a closer look

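KCNAB1 and KCNH3, both with a mean of at least 50 counts, were called in opposite directions in siERRG2 and siERRG3. The log2 ratio of siERRG3 to siERRG2 was -1.22 for KCNAB1 and 1.07 for KCNH3. With 1 library per siRNA the difference was not tested. The ratios of scaled counts were 0.419 (0.296 to 0.586) and 2.12 (1.71 to 2.65), with intervals of counting error. The extents of both genes overlap those of other genes in the table.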

How the results depend on the processing

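Counts of channel genes and their medians were recomputed with other scalings, units, filters and thresholds. With DESeq2 size factors, the FPKM values with a pseudocount of 0.1 or a prior count of 0.5, every count stayed within 1.5 times the value reported. With CPM from total counts, 2 HCN genes were called in siERRG3 in place of 1. Without a filter, 29 members were higher by fold alone in siERRG2 and 33 in siERRG3, against 15 and 20. With a mean of at least 50 counts required, and the TMM scaling recomputed on those genes, these were 8 and 11, and 1 HCN gene was called in siERRG2; with the scaling kept, the first were 8 and 9. At 1.5-fold in siERRG2, 16 members were lower and 3 higher by fold alone, and 15 and 0 with the interval, of which 8 were potassium, 2 sodium and 1 HCN genes. At 1.5-fold in siERRG3, 6 were higher by fold alone and 3 with the interval, and 2 sodium and 5 calcium genes were called. At 2-fold in siERRG2, 6 were lower and 0 higher by either rule, with 2 potassium, 1 sodium, 2 calcium and 1 HCN genes called. At 2-fold in siERRG3, 4 were lower and 2 higher by either rule, with 3 potassium, 0 sodium and 2 calcium genes called. The stricter thresholds leave fewer genes by construction. Of the tested channel and related genes that were called, CACNG2 in siERRG3 changed sign, to a log2 fold change of 0.052 on the FPKM values, and none other did under the other scalings, unit or prior count. On the FPKM values the log2 fold change of KCNMA1 was 0.48 in siERRG2 and -0.17 in siERRG3, and that of KCNH4 in siERRG2 was 0.91; the cause was not tested. No paired analysis was possible because each condition has 1 library, and for the same reason no library could be left out. Depth limits the members with few reads: the 32 with at most 9 counts allow no fold change.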
